A study of Rattus norvegicus with 14 samples.

Results

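Tumors that arose after multi-walled carbon nanotubes (MWCNTs) were set against tumors that arose after amosite asbestos, all in the peritoneum of male Wistar rats. The comparison held 11 of the 14 arrays of the series, 8 from MWCNT tumors and 3 from amosite tumors, chosen by the inducer and tissue given in the sample labels. The 3 remaining arrays came from control peritoneal tissue, sham-treated by the labels and untreated by the methods. They gave a level beside some genes and entered only the alternatives with all 14 arrays and with another choice of probe set. Each rat received a single injection of its material into the peritoneal cavity in artificial lung medium, and 1 array was made for each sample. MWCNT B was given to the rats of 2 tumors (replicate 1 epithelioid, replicate 2 sarcomatoid). MWCNT C was given to the rats of 3 tumors (replicates 1 and 2 sarcomatoid, replicate 3 biphasic), and MWCNT D to the rats of 3 tumors (replicate 1 epithelioid, replicate 2 sarcomatoid, replicate 3 biphasic). Amosite was given to the rats of 3 tumors (replicate 1 epithelioid, replicate 2 biphasic, replicate 3 sarcomatoid). The MWCNT group therefore had 4 sarcomatoid, 2 biphasic and 2 epithelioid tumors and the amosite group 1 of each type, so that every amosite value of a tumor type came from 1 tumor.

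Mesothelioma is a tumor of the mesothelium, the cell layer that lines the serous cavities, and pathologists divide it into epithelioid, sarcomatoid and biphasic forms by the shape of the tumor cells. Amosite is an iron-rich amphibole asbestos, and MWCNTs are concentric cylinders of carbon whose length, diameter and stiffness depend on how they are made. The 3 materials here differ in length, diameter and curvature, and the methods of the study name cyclohexane as the carbon source of MWCNT B and MWCNT C and acetonitrile as that of MWCNT D. Long, stiff and durable fibers of either kind are taken up incompletely by macrophages, and the lasting inflammation that follows is a known part of fiber-induced disease of the serosa. The comparison asked in which genes tumors of the 2 inducer classes differ once tumor type is taken into account.

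A probe set on these arrays is a group of short probes to 1 transcript, and its signal is an intensity that was put on a log scale as log2(signal + 1), called the log2 signal below. Each of the 11 arrays had a median signal between 128.8 and 154.4 intensity units. 2 arrays stood apart from the rest. Genes of pancreatic acinar cells gave 4.46% of all signal on the array of MWCNT D replicate 2 and 5.93% on the array of amosite replicate 1. On the other 9 arrays this share was 0.00757% to 0.0155%. On the first principal component (24.1% of the variance) amosite replicate 1 lay at -137, and on the second (22.5%) MWCNT D replicate 2 lay at 174.3. MWCNT D replicate 2 also had the lowest mesothelial list mean of the 11 tumors (6.97, a mean of log2 signals). The 7 other MWCNT tumors had mesothelial means of 8.09 to 11.27, against 11.32, 10.57 and 8.23 in amosite replicates 1, 2 and 3. MWCNT D replicate 2 was sarcomatoid, and the other sarcomatoid MWCNT tumors had means of 8.09, 8.19 and 9.31. The mesothelial marker Msln had a log2 signal of 7.92 in MWCNT D replicate 2 and 11.11 to 13.38 in the other MWCNT tumors, against 12.83, 13.03 and 11.41 in the amosite tumors. Values without these 2 arrays, which leave 7 MWCNT and 2 amosite tumors, are given below beside the lists and genes that moved with them. Because each array read whole tumor tissue, fewer cells of a type and less RNA per cell cannot be told apart in any value below.

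**Figure D1:**
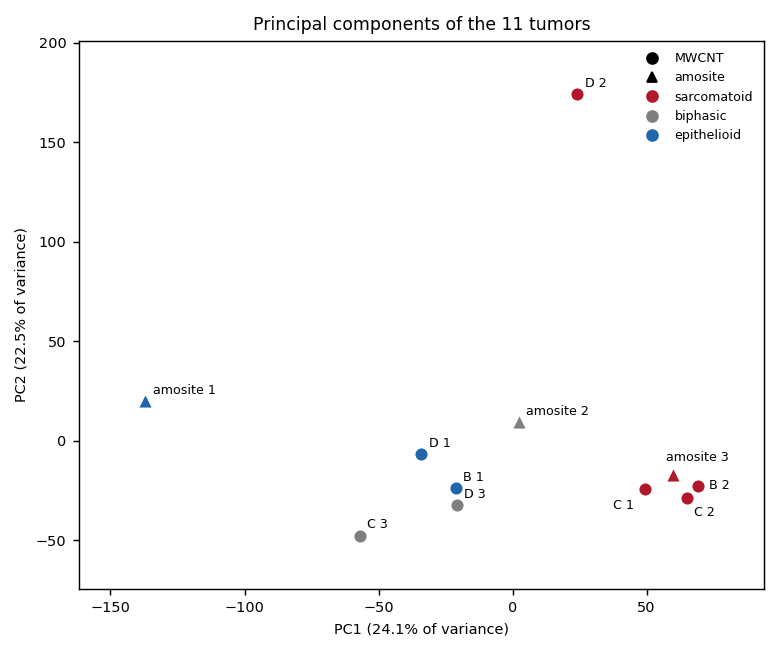
Scores of the 11 tumors on the first 2 principal components (24.1% and 22.5% of the variance of log2 signal), circles for MWCNT and triangles for amosite tumors, with color for the tumor type. Amosite replicate 1 lies alone at -137 on the first component and MWCNT D replicate 2 alone at 174.3 on the second.

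No probe set passed the test (0 of 31042, 0%), which asked for an adjusted p below 0.05 and a difference above 2-fold in limma with tumor type in the model. At an unadjusted p below 0.05, 1280 probe sets (4.12%) differed, 636 of them higher in MWCNT tumors (2.05%) and 644 lower (2.07%). With the fold limit added, 338 were left (1.09%), of which 148 were higher (0.477%) and 190 lower (0.612%). The median difference over all probe sets was -0.008 on the log2 scale, with the middle of the distribution between -0.20 and 0.17, and the median standard error was 0.26. The lowest adjusted p was 0.44 and belonged to a probe set of Cdh1, the epithelial cadherin, with mean log2 signals of 2.32 in MWCNT tumors and 0.93 in amosite tumors, both at the bottom of the scale. The brighter Cdh1 probe set, with means of 9.07 in MWCNT tumors and 8.18 in amosite tumors, had an unadjusted p of 0.13.

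Tumor type took more of the variation than inducer class. In sums of squares over all probe sets, inducer class after tumor type accounted for 7.54% with 1 degree of freedom, and tumor type after inducer class for 27.7% with 2 degrees of freedom. The 4 inducer groups after tumor type accounted for 26.3% with 3 degrees of freedom. In the same model, 6 probe sets were called between biphasic and sarcomatoid tumors (0.0193%), 8 between epithelioid and sarcomatoid tumors (0.0258%), and 0 between biphasic and epithelioid tumors by limma, where 479 (1.54%) passed the unadjusted p and the fold limit. Pairs of arrays correlated with a median r of 0.921 within the MWCNT tumors (28 pairs) and 0.911 between MWCNT and amosite tumors (24 pairs), and the 3 amosite pairs had a median of 0.882. The 3 amosite pairs all joined different tumor types and ran from 0.848 to 0.938. Pairs of an amosite and a MWCNT tumor of different types had a median of 0.909 (16 pairs). Amosite pairs with replicate 1 include an array with pancreatic signal. By these medians the amosite tumors were no more alike than an amosite and a MWCNT tumor. This is a description across probe sets, with the same arrays in several pairs.

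The 15 genes with the smallest unadjusted p in each direction are described below, among those with a fold above 2 and a mean log2 signal of at least 8 in the higher group. None of them passed the adjusted test (lowest adjusted p of a gene's brightest probe set 0.99998), they were picked by the p they are given with, and their values are a description of these 11 tumors. Of the 15 higher in MWCNT tumors, 5 had no overlap between the groups and 11 had no overlap within any of the 3 tumor types. Of the 15 lower, these counts were 3 and 11. Over all probe sets, the groups did not overlap for 149 higher (0.48%) and 147 lower (0.474%), and did not overlap within each type for 580 higher (1.87%) and 583 lower (1.88%). The smallest two-sided p of an exact permutation test is 0.022 when inducer labels are exchanged within tumor types and 0.0061 over all 11 tumors.

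Cd55 had the smallest p of the genes with lower signals in MWCNT tumors. Cd55, the decay-accelerating factor that breaks down complement convertases on a cell's own membrane, had log2 signals of 8.16 (lowest), 9.02 (median) and 10.89 (highest) in the 8 MWCNT tumors, against 10.51, 12.40 and 11.11 in amosite replicates 1, 2 and 3. Only its highest MWCNT tumor, MWCNT D replicate 3, reached into the amosite range, and within each tumor type all MWCNT values lay below the amosite value. The difference was -2.15 ± 0.42 (SE; unadjusted p = 0.000613 in limma), and the gene's other probe set gave -2.21. Control peritoneal tissue had a mean Cd55 signal of 10.68, which was above the median of the MWCNT tumors and within the range of the amosite tumors. Bst2, or tetherin, an interferon-induced membrane protein that holds budding enveloped virus particles on the cell surface, had log2 signals of 11.41, 12.13 and 12.81 (lowest, median, highest) in MWCNT tumors, against 13.69, 13.20 and 13.36 in amosite tumors. The groups did not overlap, and the difference was -1.24 ± 0.28 (unadjusted p = 0.00178 in limma, exact permutation p = 0.022 within types and 0.0061 over all tumors).

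The promoter of Bst2 is shown because it holds the element through which interferon-activated factors are known to act. Beside it is that of Oas1a, an interferon-induced enzyme that makes the activator of RNase L and that also had a lower signal in MWCNT tumors. Not all interferon-response genes had this direction, and Ifit1 was higher in MWCNT tumors (0.81, unadjusted p = 0.0063 in limma). Amosite replicate 1, the tumor with the highest Bst2 signal, had the lowest mean of the interferon-response genes among the 11 tumors (7.65). The 2 promoters shown are RefSeq sequences on the rat build GRCr8, the 250 bases before the annotated start. Bst2 is at chr16:18254968-18255217 on the minus strand and Oas1a at chr12:41330216-41330465 on the plus strand. Capitals mark matches to the interferon-stimulated response element, searched on both strands as GAAA, any 2 bases and again GAAA, and each promoter held 2 overlapping matches, which begin 131 and 125 bases before the start in Bst2 and 41 and 35 bases before it in Oas1a.
Bst2: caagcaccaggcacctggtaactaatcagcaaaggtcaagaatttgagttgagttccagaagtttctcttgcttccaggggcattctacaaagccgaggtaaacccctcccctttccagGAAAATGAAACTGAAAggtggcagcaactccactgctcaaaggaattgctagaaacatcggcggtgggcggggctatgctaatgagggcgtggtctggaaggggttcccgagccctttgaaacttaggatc
Oas1a: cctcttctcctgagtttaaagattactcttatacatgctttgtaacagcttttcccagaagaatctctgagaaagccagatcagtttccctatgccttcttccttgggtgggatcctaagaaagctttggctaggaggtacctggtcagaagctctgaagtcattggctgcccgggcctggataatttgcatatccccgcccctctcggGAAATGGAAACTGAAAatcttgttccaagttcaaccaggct
In windows of 250 bases before and 50 bases after the start, this element was found in 1312 of 33469 RefSeq promoters (3.92%). It was found in 1 of the 12 genes with lower signals that had a promoter in the table (Bst2) and in 0 of the 14 with higher signals. Among the 15 of 20 interferon-response genes with a promoter in the table, 9 held it. Oas1a had log2 signals of 5.45, 6.79 and 9.16 (lowest, median, highest) in MWCNT tumors, against 7.83, 10.80 and 7.98 in amosite tumors, and these ranges overlapped. Its difference was -1.92 ± 0.85 (unadjusted p = 0.049 in limma), and it was -1.03 without amosite replicate 2, the highest amosite tumor (unadjusted p = 0.30), and -2.81 without amosite replicate 3.

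Heph, Slc7a7, Slc2a5 and Fabp3 were also among the 15 genes with lower signals. Heph, or hephaestin, the copper enzyme that oxidizes iron as it leaves the cell, had log2 signals of 7.40, 8.76 and 9.31 (lowest, median, highest) in MWCNT tumors, against 10.13, 10.11 and 9.76 in amosite tumors. Its groups did not overlap, and it differed by -1.49 ± 0.34 (unadjusted p = 0.00184 in limma). Slc7a7, the light chain of a transporter for arginine and lysine, had 8.36, 9.05 and 9.77 in MWCNT tumors, against 10.03, 10.24 and 9.97 in amosite tumors, also without overlap and with a difference of -1.01 ± 0.30. Slc2a5, the fructose transporter, had 5.64, 6.76 and 8.20 in MWCNT tumors, against 8.87, 8.15 and 8.04 in amosite tumors, and its highest MWCNT tumor lay inside the amosite range. Fabp3, the fatty acid-binding protein of heart and muscle, had 5.29, 6.32 and 7.73 in MWCNT tumors, against 8.61, 9.07 and 7.01 in amosite tumors. It lay below the amosite value within each tumor type and differed by -1.57 ± 0.32, while control tissue, in which the muscle gene Ttn had a mean of 14.67, had a Fabp3 mean of 12.19.

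Bmp1 and Sfrp2 act outside the cell. Bmp1, the protease that trims procollagen before fibers form, had 7.41, 8.88 and 9.47 in MWCNT tumors, against 10.16, 11.04 and 9.19 in amosite tumors, a difference of -1.37 ± 0.28 (unadjusted p = 0.000819 in limma). Sfrp2, a secreted binder of WNT proteins, had 6.73, 9.29 and 11.89 in MWCNT tumors, against 12.47, 13.10 and 11.31 in amosite tumors, a difference of -2.63 ± 0.75. Both genes overlapped between the groups but were lower in MWCNT tumors within each tumor type, and a second probe set gave -1.05 for Bmp1 and -2.66 for Sfrp2. In both genes the sarcomatoid amosite tumor was the lowest of the 3.

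Other genes had amosite tumors far apart from each other. Dcdc2, a doublecortin-domain protein of the primary cilium, lay between 6.43 and 7.13 in all 8 MWCNT tumors, against 13.30, 13.10 and 6.44 in amosite replicates 1, 2 and 3. The sarcomatoid amosite tumor was thus at the level of the MWCNT tumors, and the other 2 were far above it. With all tumors the difference was -3.93 ± 1.09. Without that tumor Dcdc2 passed the adjusted test (-6.44, adjusted p = 7.5e-05 in limma). That run dropped the one amosite value at the MWCNT level and held no sarcomatoid amosite tumor, so the pass is no support for a difference. Without the 2 arrays with pancreatic signal the difference was -2.92 (unadjusted p = 0.053). Adgrb2, an adhesion G protein-coupled receptor of the brain, had 6.59, 7.79 and 9.13 in MWCNT tumors, against 13.78, 11.87 and 8.27 in amosite tumors. Aard, a protein rich in alanine and arginine, had the same order of amosite tumors, with 3.16, 6.33 and 8.06 in MWCNT tumors, against 12.19, 10.67 and 7.78 in amosite tumors. Haus8, an augmin subunit of the mitotic spindle, lay between 8.12 and 9.17 in MWCNT tumors, against 9.01, 8.90 and 11.90 in amosite tumors. Only its sarcomatoid amosite tumor lay above the whole MWCNT range. Within each tumor type, however, all MWCNT values of Haus8 and of Adgrb2 lay below the amosite value. Adgrb2, Aard and Haus8 kept an unadjusted p below 0.05 in limma when any 1 tumor was left out.

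Star, Akr1c3 and Aldh1l1 were likewise uneven among the amosite tumors. Star, the protein that carries cholesterol into mitochondria for steroid synthesis, had 4.95, 5.84 and 7.92 in MWCNT tumors, against 6.77, 7.23 and 10.46 in amosite tumors, and its second probe set differed by -3.30. Akr1c3, a ketosteroid reductase of a family of close relatives that a probe set may not separate, had 3.83, 5.11 and 6.28 in MWCNT tumors, against 4.71, 11.25 and 9.34 in amosite tumors. Amosite replicate 1 was inside the MWCNT range, and the difference was -3.34 ± 0.99. Aldh1l1, a folate dehydrogenase, had 5.15, 6.25 and 7.79 in MWCNT tumors, against 6.96, 8.15 and 9.81 in amosite tumors. Leaving out amosite replicate 3 moved Aldh1l1 to -1.24 and Star to -1.43 (unadjusted p = 0.075 and 0.088 in limma), and leaving out amosite replicate 2 moved Akr1c3 to -2.07. Without the 2 arrays with pancreatic signal Akr1c3 stood at -5.27.

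**Figure D2:**
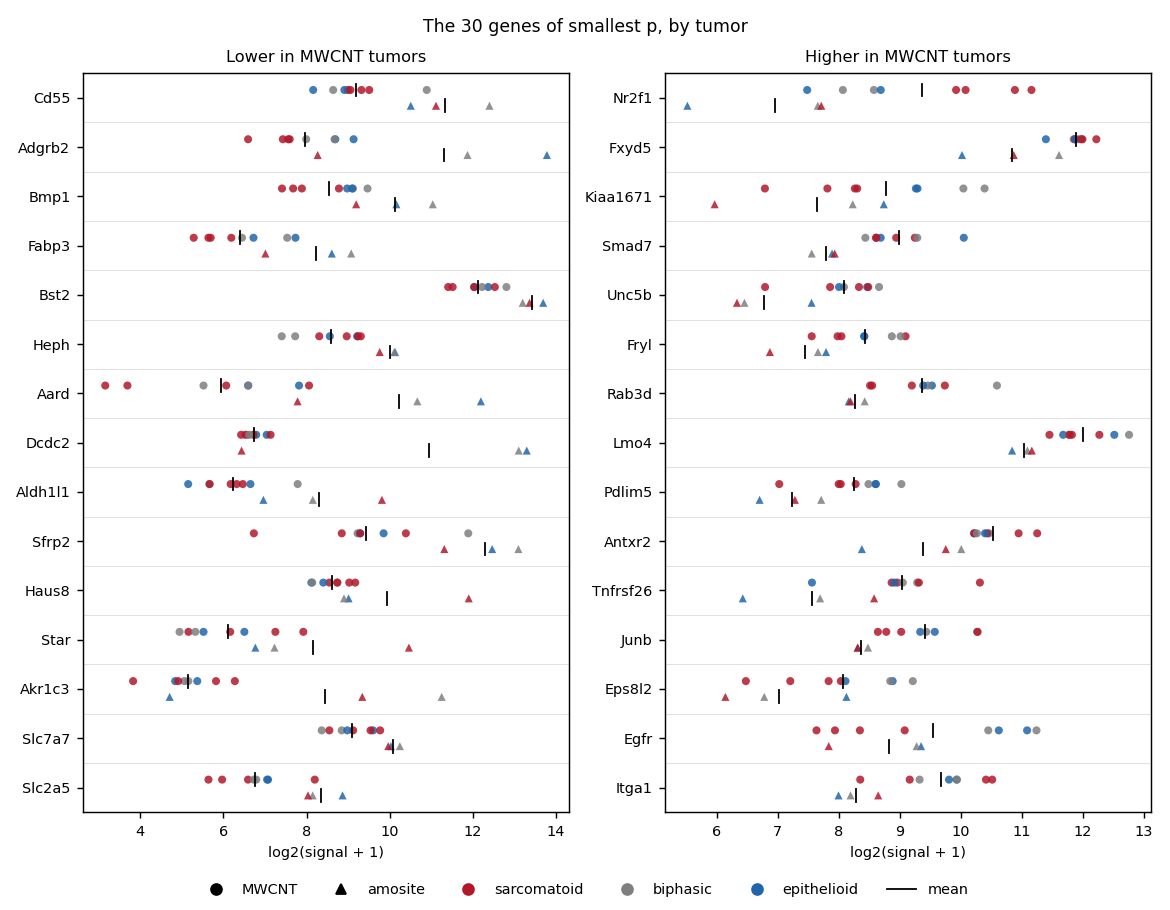
Log2 signal of the 30 genes with the smallest p, each point 1 tumor, with MWCNT tumors (circles) above amosite tumors (triangles) in each row, color for the tumor type and a bar at the group mean. Bst2, Heph and Slc7a7 are lower in every MWCNT tumor than in any amosite tumor, and Smad7, Rab3d, Lmo4, Antxr2 and Junb are higher.

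Nr2f1 had the smallest p of the genes with higher signals in MWCNT tumors. It encodes an orphan nuclear receptor that sets cell fate in neural and mesenchymal tissue. Nr2f1 had log2 signals of 7.48, 9.30 and 11.16 (lowest, median, highest) in MWCNT tumors, against 5.52, 7.66 and 7.71 in amosite tumors. Only the lowest MWCNT tumor lay under an amosite value, and the difference was 2.06 ± 0.46 (unadjusted p = 0.00145 in limma). By tumor type, the MWCNT mean stood 2.56 above the amosite tumor among epithelioid tumors, 0.66 above it among biphasic tumors and 2.80 above it among sarcomatoid tumors. Lmo4, a LIM-only protein that bridges transcription factors, had 11.45, 11.80 and 12.75 in MWCNT tumors, against 10.84, 11.09 and 11.16 in amosite tumors, without overlap. It differed by 1.01 ± 0.28, and its 4 other probe sets gave 1.18, 1.20, 0.12 and 0.90.

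2 genes that answer growth and cytokine signals within minutes to hours were higher without overlap. Smad7, the inhibitory SMAD that TGF-beta induces and that shuts its receptor down, had 8.44, 8.81 and 10.05 in MWCNT tumors, against 7.89, 7.56 and 7.93 in amosite tumors. The difference was 1.21 ± 0.32 (unadjusted p = 0.0038 in limma), with 1.06 and 0.04 at its other probe sets. Junb, a subunit of the AP-1 transcription factor, had 8.64, 9.38 and 10.27 in MWCNT tumors, against 8.31, 8.48 and 8.31 in amosite tumors, a difference of 1.11 ± 0.35 (unadjusted p = 0.011). The 3 amosite values of Junb lay close together, below every MWCNT tumor. The promoter of Junb is shown as that of a member without overlap, from RefSeq on GRCr8 at chr19:40080876-40081125 on the plus strand, the 250 bases before the start, with a match to the TATA box (TATAAA, searched on both strands) in capitals, 49 bases before the start.
Junb: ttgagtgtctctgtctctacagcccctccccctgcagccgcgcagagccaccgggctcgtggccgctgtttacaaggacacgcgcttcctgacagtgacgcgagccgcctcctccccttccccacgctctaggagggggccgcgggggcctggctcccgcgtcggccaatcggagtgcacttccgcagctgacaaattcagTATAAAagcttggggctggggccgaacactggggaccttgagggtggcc
The TATA box letters were in 14.2% of the 33469 promoters. The AP-1 element (TGANTCA) was in 7.33% of all promoters and in 0 of the 14 higher and 0 of the 12 lower genes, the cAMP response element (TGACGTCA) in 1.83%, the antioxidant response element (TGACNNNGC) in 12.1%, and the SMAD palindrome (GTCTAGAC) in 0.197%. A match or its lack says only whether these letters stand in this window.

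Antxr2, Rab3d, Itga1, Fxyd5 and Unc5b were among the others with higher signals. Antxr2, a receptor of basement membrane collagen and laminin, had 10.22, 10.41 and 11.25 in MWCNT tumors, against 8.38, 10.01 and 9.75 in amosite tumors, and Rab3d, a small GTPase of secretory vesicles, had 8.51, 9.42 and 10.59 in MWCNT tumors, against 8.16, 8.42 and 8.19 in amosite tumors. Neither gene overlapped between the groups, and they differed by 1.07 ± 0.30 and 1.20 ± 0.33. Itga1, the collagen-binding integrin subunit, had 8.35, 9.87 and 10.51 in MWCNT tumors, against 8.0, 8.19 and 8.65 in amosite tumors, a difference of 1.40 ± 0.45 that was 1.03 without the 2 arrays with pancreatic signal (unadjusted p = 0.085 in limma). Fxyd5, or dysadherin, a regulator of the sodium pump that lowers cell adhesion, had 11.39, 11.90 and 12.22 in MWCNT tumors, against 10.02, 11.61 and 10.87 in amosite tumors, a difference of 1.02 ± 0.23. Unc5b, a netrin receptor, had 6.79, 8.21 and 8.66 in MWCNT tumors, against 7.55, 6.46 and 6.33 in amosite tumors, and MWCNT D replicate 2 was the low tumor. Other probe sets gave 0.31 and 1.14 for Antxr2 and 0.72 for Unc5b.

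Egfr, the epidermal growth factor receptor, followed tumor type more closely than inducer. It had 7.64, 9.76 and 11.24 in MWCNT tumors, against 9.35, 9.28 and 7.84 in amosite tumors, and the groups overlapped widely. Among epithelioid tumors the MWCNT mean was 10.85 against 9.35 in the amosite tumor, among biphasic tumors 10.84 against 9.28, and among sarcomatoid tumors 8.25 against 7.84. The difference with tumor type in the model was 1.12 ± 0.36, and 2 other probe sets gave 1.11 and 0.61. Over all tumors and without regard to type, its exact permutation p was 0.44, against 0.067 within types. Eps8l2, an actin-binding protein that links EGF receptors to RAC, differed by 1.29 (0.27 at its other probe set) and overlapped in the same way. The remaining genes with higher signals were Pdlim5, a PDZ and LIM protein of the actin cytoskeleton (1.13), Tnfrsf26, a receptor of the TNF family (1.32), Fryl, a relative of the furry scaffold protein (1.08), and Kiaa1671 (1.47). Their dimmer probe sets mostly gave less, with 0.44, 0.075 and 0.0045 for Pdlim5, 1.18 and 0.13 for Fryl and 0.56 for Kiaa1671.

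The 3 materials were each set against the same 3 amosite tumors in 1 model with tumor type, so the comparisons share their controls and are not independent of each other. No probe set passed the test for MWCNT B, MWCNT C or MWCNT D (0 of 31042, 0% each). At an unadjusted p below 0.05 with the fold limit, limma gave 496 probe sets for MWCNT B (1.6%), 657 for MWCNT C (2.12%) and 479 for MWCNT D (1.54%). The 3 genes with the smallest p each way in each material are described here, and none passed the adjusted test.

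Acan, or aggrecan, the large proteoglycan of cartilage, had the widest gap between materials among these genes. Its log2 signals were 11.31 and 12.87 in the MWCNT B tumors and 12.56, 11.67 and 11.14 in the MWCNT C tumors, but 5.68, 5.47 and 6.08 in the MWCNT D tumors, against 5.58, 5.55 and 9.61 in amosite replicates 1, 2 and 3. All 5 tumors of MWCNT B and MWCNT C lay above every amosite tumor, while the 3 of MWCNT D lay near the 2 lower amosite tumors. The differences from amosite were 4.99 ± 0.97 for MWCNT B, 4.31 ± 0.88 for MWCNT C and -1.17 ± 0.84 for MWCNT D. The difference between materials was not tested, and the gene was named because of its p for MWCNT B and MWCNT C.

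MWCNT C had the highest count of probe sets past the unadjusted limits. MWCNT C had no epithelioid and MWCNT B no biphasic tumor, so their differences lean on tumor type effects that the model shares across the groups. The counts of the materials are therefore not strictly alike. Cda, cytidine deaminase, a pyrimidine salvage enzyme, had 8.94, 8.46 and 7.12 in MWCNT C tumors and 5.63 to 6.63 in the other MWCNT tumors, against 5.12, 4.10 and 5.51 in amosite tumors, so that it was above amosite in all 8 MWCNT tumors. Its difference was 3.13 for MWCNT C, 1.26 for MWCNT B and 0.87 for MWCNT D. Foxa2, a forkhead factor of endoderm, differed by 4.46 for MWCNT C, with 6.70, 7.96 and 11.63 in MWCNT C tumors, against 8.54, 6.19 and 3.47 in amosite tumors. The ranges overlapped, and within the biphasic and the sarcomatoid tumors each MWCNT C value lay above the amosite value. Pltp, the phospholipid transfer protein, differed by -2.82, with 9.64, 9.93 and 8.57 in MWCNT C tumors, against 10.12, 12.13 and 12.64 in amosite tumors. Sfrp2 and Bmp1, described above, were the other lower genes of MWCNT C, at -3.96 and -1.61.

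For MWCNT B, Acot7, a thioesterase of long-chain acyl-CoA, was higher by 1.92, with 9.998 and 11.12 in MWCNT B tumors, against 7.53, 8.76 and 9.85 in amosite tumors. Nr2f1 was higher by 2.78. Msx1, a homeobox factor of mesenchyme, differed by -1.64, with 9.13 and 7.23 in MWCNT B tumors, against 10.94, 8.81 and 9.01 in amosite tumors. Fabp3 differed by -2.02 and Sipa1l2, a RAP GTPase activator, by -1.14. For MWCNT D, Gfra1, the receptor of glial cell line-derived neurotrophic factor, was higher by 1.75, with 8.15, 7.01 and 9.01 in MWCNT D tumors, against 6.12, 7.39 and 5.41 in amosite tumors. Hip1r, a clathrin adaptor, was higher by 1.28 and Cnot6l, a deadenylase subunit, by 1.15. Dbn1, the actin-binding protein drebrin, differed by -1.49, Tmem67, a protein of the ciliary transition zone, by -1.21, and Bmp1 by -1.51.

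**Figure D3:**
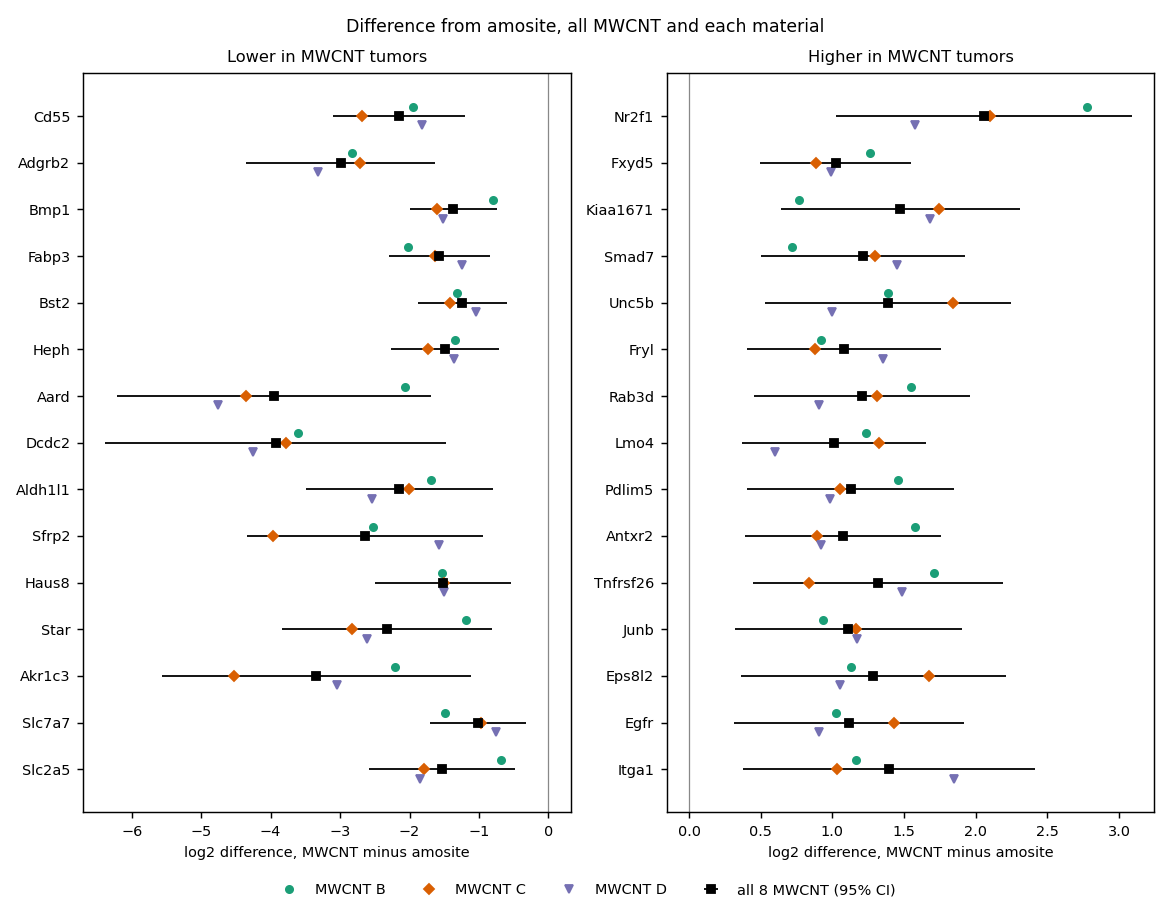
Log2 difference from the amosite tumors of the same 30 genes, for all 8 MWCNT tumors (squares, with the 95% interval of the model) and for MWCNT B, MWCNT C and MWCNT D alone, which all share the 3 amosite tumors. Nr2f1 lies at 2.78, 2.10 and 1.58 for MWCNT B, MWCNT C and MWCNT D, and Sfrp2 at -2.52, -3.96 and -1.58.

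46 lists of genes, holding 693 measured genes, were described by their counts and medians beside those of all probe sets (median -0.008, 2.05% higher and 2.07% lower at an unadjusted p below 0.05). No member of any list passed the adjusted test. The median difference was above 0 in 27 lists, and in 0 of the 46 lists did the list means of MWCNT and amosite tumors fail to overlap. A list's value per tumor is the mean log2 signal of its measured members.

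Mast cell genes had the lowest median after the pancreatic acinar list, at -1.40 over 13 measured genes, 11 of them lower in MWCNT tumors and 2 of these at an unadjusted p below 0.05. Mast cells sit in connective tissue and release proteases, histamine and cytokines when triggered. The list mean lay between 4.63 and 8.87 in MWCNT tumors, against 8.11, 7.74 and 8.27 in amosite tumors, so the amosite tumors fell inside the MWCNT range. The biphasic MWCNT tumors were the lowest, at 4.63 and 4.90, while the 4 sarcomatoid MWCNT tumors lay between 7.74 and 8.87. Mcpt10, a mast cell protease of a family of close relatives, had 0.01, 7.62 and 9.58 (lowest, median, highest) in MWCNT tumors, against 9.74, 8.88 and 9.24 in amosite tumors, a difference of -3.03 ± 1.26. Cma1, chymase, differed by -1.70, Fcer1a, the alpha chain of the high-affinity IgE receptor, by -2.06, and Cpa3, a mast cell carboxypeptidase, by -1.40. Kit, the receptor that mast cells need for survival, had -0.12. The list median was -1.67 without the 2 arrays with pancreatic signal and -0.29 without amosite replicate 2.

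Interferon-response genes had a median of -0.39 with 17 of 20 lower in MWCNT tumors, 1 lower and 1 higher at an unadjusted p below 0.05. Oas1a was the lower one, and Ifit1, which binds viral RNA that lacks a cap methyl group, was the higher one, at 0.81 ± 0.23. Mx1 and Mx2, GTPases that block virus replication, differed by -1.30 and -1.85. Irf7, a regulator of interferon genes, differed by -1.36, and Usp18, which removes ISG15, by -1.35. No unadjusted p in limma was below 0.13 among these, and Mx1, Mx2 and Irf7 were picked outside the rules for naming genes. The amosite tumors themselves were far apart, with list means of 7.65, 10.72 and 9.24 in replicates 1, 2 and 3, against 7.99 to 10.40 in MWCNT tumors. The median was 0.28 without amosite replicate 2, the tumor with the highest level, and -1.13 without the 2 arrays with pancreatic signal.

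Genes of epithelial junctions had a median of 0.54, and 19 of 21 were higher in MWCNT tumors, 1 of them at an unadjusted p below 0.05. This was Dsg2, the desmosomal cadherin, at 1.74 ± 0.74, with 7.37, 10.45 and 11.94 in MWCNT tumors, against 10.99, 10.35 and 5.55 in amosite tumors. Its partner Dsc2 differed by 2.15 and Epcam, an epithelial adhesion molecule, by 1.84 (unadjusted p = 0.054 and 0.052 in limma). By type, the list mean of the biphasic MWCNT tumors was 8.93 and 9.51, against 7.46 in the amosite tumor. Among sarcomatoid tumors it was 6.31 to 7.12 in MWCNT tumors, against 6.16 in the amosite tumor, and among epithelioid tumors 7.93 and 8.78, against 8.45. The list thus had an order by inducer in biphasic and sarcomatoid tumors and none in epithelioid tumors, and its median was 0.91 without the 2 arrays with pancreatic signal and 0.19 without amosite replicate 2.

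Genes of vessels and of contractile cells were mostly higher in MWCNT tumors. Of 12 measured genes of smooth muscle and pericytes, 10 were higher, 3 at an unadjusted p below 0.05, with a median of 0.51. Acta2, smooth muscle actin, had 10.19, 10.51 and 10.91 in MWCNT tumors, against 9.54, 9.83 and 10.29 in amosite tumors, a difference of 0.72 ± 0.22. Tagln, an actin-binding protein of the same cells, differed by 1.93 and Actg2, enteric smooth muscle actin, by 1.39. Of 12 measured endothelial genes, 11 were higher, 2 at an unadjusted p below 0.05, with a median of 0.39: Pecam1, a junction protein of endothelium, differed by 1.16 and Vwf, von Willebrand factor, by 0.66. MWCNT D replicate 2 had the highest endothelial mean of the 11 tumors, 9.76, and without it and amosite replicate 1 the medians were 0.22 for endothelial genes and 0.39 for smooth muscle genes.

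**Figure D4:**
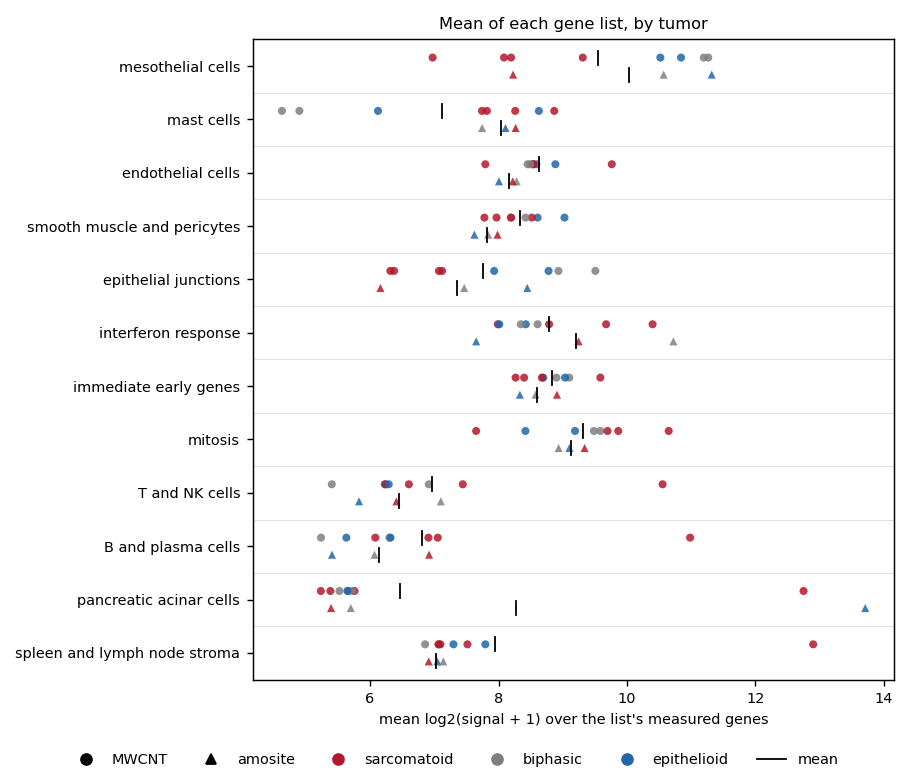
Mean log2 signal of the measured members of 12 gene lists, each point 1 tumor, with MWCNT tumors (circles) above amosite tumors (triangles), color for the tumor type and a bar at the group mean. Mast cell means of amosite tumors (7.74 to 8.27) fall inside the MWCNT range (4.63 to 8.87), and the pancreatic acinar mean is high in 1 tumor of each group.

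Immediate early genes, which cells switch on within minutes of a stimulus, had a median of 0.33, with 12 of 18 higher, 3 higher and 1 lower at an unadjusted p below 0.05. Beside Junb, Ier2 differed by 0.84 ± 0.31, with 9.20, 10.03 and 10.63 in MWCNT tumors, against 9.17, 9.03 and 9.14 in amosite tumors, without overlap. Egr1, a zinc finger factor chosen here after its values were seen, differed by 1.06. Jund, another AP-1 subunit, differed in the other direction, by -0.67. Fos and Jun had 0.13 and -0.34, neither at an unadjusted p below 0.05, so the AP-1 subunits had differences of both signs.

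Among signaling lists, members differed in both directions around medians near 0. In the TGF-beta and activin list (median 0.09, or 0.35 without the 2 arrays with pancreatic signal, 10 of 20 higher), Smad7 was higher and Inhbb, the beta B subunit of activins, lower. Inhbb had 7.52, 9.81 and 10.24 in MWCNT tumors, against 10.44, 11.23 and 12.06 in amosite tumors, without overlap and with a difference of -1.63 ± 0.60. Inhba, the beta A subunit, stood at 1.58 ± 1.11, with 6.21, 10.89 and 11.25 in MWCNT tumors, against 6.74, 8.82 and 10.20 in amosite tumors. In the WNT list (median -0.01) the ligands Wnt2 and Wnt2b differed by -1.46 and -0.86, while Sfrp4, a secreted inhibitor named after its values were seen, differed by 2.70, opposite to its relative Sfrp2. In the list of growth factors and receptors (median 0.14), Egfr and its ligand Ereg, epiregulin, were higher, at 1.12 and 0.78, and Fgf9 was lower, at -2.24, with 4.28, 5.12 and 9.27 in MWCNT tumors, against 9.65, 10.04 and 5.42 in amosite tumors.

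Matrix and protease genes did not share a direction. Mmp12, the macrophage elastase, had 4.80, 9.51 and 10.73 in MWCNT tumors, against 5.65, 5.60 and 6.14 in amosite tumors, a difference of 3.12 ± 1.26 (unadjusted p = 0.035 in limma). 7 of the 8 MWCNT tumors lay above all amosite tumors, and MWCNT C replicate 2 lay below them. Mmp11, a stromal protease, differed by -1.39, with 5.96, 7.86 and 8.71 in MWCNT tumors, against 9.01, 8.62 and 9.54 in amosite tumors. Col12a1, a collagen that coats fibrils, differed by 1.31. Of 17 macrophage genes, 12 were lower and none passed an unadjusted p of 0.05 (median -0.19): Csf1r, the macrophage growth factor receptor, had -0.26 and Cd163, a hemoglobin scavenger receptor, -0.19. The phagocytic receptors (median -0.09) and the giant cell and osteoclast genes (median -0.10) likewise had no member at an unadjusted p below 0.05. Without the 2 arrays with pancreatic signal the macrophage median was -0.86 and that of phagocytic receptors -0.74, while without amosite replicate 2 they were 0.43 and 0.38, so that neither list had a settled direction.

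Lists chosen for fiber toxicity showed few differences. Amosite carries iron and MWCNTs consist of carbon, and in the iron-handling list 12 of 18 genes were lower in MWCNT tumors (median -0.19, or -0.037 without the 2 arrays with pancreatic signal). Heph was the one lower gene at an unadjusted p below 0.05 and Cp, ceruloplasmin, its secreted relative, the one higher gene, at 1.17 ± 0.40, with 10.28, 11.66 and 12.19 in MWCNT tumors, against 10.75, 10.70 and 9.75 in amosite tumors. Both are copper oxidases of iron. NRF2 antioxidant genes (median 0.03, 11 of 19 higher), aryl hydrocarbon receptor targets (0.07, or 0.21 without these arrays) and inflammasome and IL1 family genes (0.20) had no member at an unadjusted p below 0.05. In the complement list (median -0.18) 12 of 15 genes were lower, Cd55 alone at an unadjusted p below 0.05, and its median was -0.86 without the 2 arrays with pancreatic signal and 0.52 without amosite replicate 2. Integrins had a median of 0.30, which was -0.04 without these 2 arrays.

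Mitosis genes had a median of 0.10 and DNA replication genes 0.18, with Dnmt1, the maintenance DNA methyltransferase, at 0.75 ± 0.31 (unadjusted p = 0.038 in limma). Without the 2 arrays with pancreatic signal these medians were 0.63 and 0.53, and without amosite replicate 2 they were -0.12 and -0.072. p53 targets had 0.02 and Hippo pathway genes -0.01. Among tumor suppressors of mesothelioma, Rassf1, a RAS-binding inhibitor of growth, had 9.21, 9.39 and 9.69 in MWCNT tumors, against 8.91, 9.09 and 8.95 in amosite tumors, without overlap but with a difference of only 0.44 ± 0.16. Hpgd, which inactivates prostaglandins, differed by 1.93 ± 0.64 in the list of prostaglandin and leukotriene enzymes (median -0.21, or -0.054 without the 2 arrays).

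Lymphoid and pancreatic lists moved with the 2 arrays that stood apart. T and NK cell genes had a median of 0.44 and spleen and lymph node stroma genes 0.88, and MWCNT D replicate 2 held list means of 10.55 and 12.90, against at most 7.44 and 7.79 in the other MWCNT tumors and 7.10 and 7.14 in the amosite tumors. Without the 2 arrays the medians were -0.23 and -0.16. All 21 measured genes of pancreatic acinar cells were lower in MWCNT tumors (median -1.93, 0 at an unadjusted p below 0.05 in limma), and their list mean was 12.75 in MWCNT D replicate 2 and at most 5.76 in the other MWCNT tumors, against 13.71, 5.70 and 5.39 in amosite replicates 1, 2 and 3. Without the 2 arrays that median was 0.02. In all, 9 of the 46 list medians changed sign without these arrays. The medians of 3 further lists moved far without a change of sign, to -1.86 against -0.22 as reported for adipocytes, -0.87 against -0.10 for antigen presentation class II and 0.56 against 0.09 for mesothelial cells. Among single genes described above, Mmp12 (2.89), Acta2 (0.51), Cp (1.10), Rassf1 (0.36), Fgf9 (-2.52) and Mcpt10 (-3.56) kept their sign without the 2 arrays. Their unadjusted p in limma was then above 0.05. The same held for Pecam1 (0.654), Actg2 (1.156), Col12a1 (1.271), Egr1 (1.175) and Wnt2b (-0.38). It also held for Acot7 (0.806), Hip1r (0.748), Cnot6l (0.437) and Sipa1l2 (-0.629) in the comparison of all MWCNT tumors with amosite tumors. Of 94 genes run without the 2 arrays, 18 lost an unadjusted p below 0.05 and 6 gained one, with the sign kept. Dsc2 (3.45, unadjusted p = 0.0049 in limma), Epcam (2.72, 0.021), Pltp (-2.15, 0.036) and Plaat1 (0.92, 0.028) were among those that gained it. Dnmt1 (1.17, 0.0034) and Inhbb (-1.83, 4.7e-05) were below 0.05 in both runs, with a smaller p without the 2 arrays.

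Of 33 measured genes in the study's list for mesothelioma, which was chosen on these samples against controls, 17 were higher and 16 lower in MWCNT than in amosite tumors, with a median of 0.01. Adam10, a membrane protease of that list, differed by 0.64 ± 0.29 (unadjusted p = 0.057 in limma). The other Adam10 probe set differed by 0.79 (unadjusted p = 0.024 in limma). Of 11 other genes picked from those discussed in the study or measured by RT-qPCR, the smallest unadjusted p in limma was 0.13 (Plaat1). Msln, mesothelin, stood at -0.20, with a 95% interval of -1.85 to 1.45, and Wt1, the mesothelial transcription factor, at -1.0 (interval -2.98 to 0.98). Wt1 had 7.08, 11.57 and 12.06 in MWCNT tumors, against 13.39, 11.61 and 11.40 in amosite tumors, and without the 2 arrays with pancreatic signal its difference was -0.19 and that of Msln 0.04. Spp1, osteopontin, stood at 0.87 (interval -1.72 to 3.47), with 8.07, 12.77 and 13.52 in MWCNT tumors, against 9.31, 12.52 and 11.80 in amosite tumors. Foxm1, a factor of the cell cycle, stood at 0.15 (interval -1.04 to 1.35). Each of these intervals reached about 1 log2 unit or more on both sides of 0, so a like level in tumors of both classes is not shown.

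Plaat1 is a phospholipid acyltransferase. Its log2 signals were 7.46 and 7.26 in MWCNT B tumors, 6.84, 7.05 and 7.25 in MWCNT C tumors and 6.55, 4.83 and 6.36 in MWCNT D tumors, against 5.52, 5.65 and 6.34 in amosite tumors. The 5 tumors of MWCNT B and MWCNT C lay above all amosite tumors, with differences of 1.58 and 1.33 in the shared model, and MWCNT D differed by 0.08. The low MWCNT D tumor, at 4.83, was replicate 2, an array with pancreatic signal. The other 2 MWCNT D tumors, at 6.55 and 6.36, also lay above all amosite tumors, the second by little. Over the 8 MWCNT tumors together the difference was 0.88 ± 0.53. Without the 2 arrays with pancreatic signal it was 0.92 (unadjusted p = 0.028 in limma). Control tissue had a mean of 10.74, above every tumor. Nr4a1 (0.39), Fgfr4 (-0.22), Ret (-0.32), Rnd3 (0.26) and Gadd45b (0.74) overlapped between the groups.

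The test of whether the difference between MWCNT and amosite tumors depends on tumor type was passed by 117 probe sets (0.377% of 31042) with 87 named genes, and 2040 (6.57%) had an unadjusted p below 0.05. With 1 amosite tumor of each type, a dependence on type and a feature of 1 amosite tumor cannot be told apart, and the values showed single tumors. Of the 117 probe sets, 91 were highest in amosite replicate 1, 12 in amosite replicate 2 and 6 in amosite replicate 3, and in 83, 8 and 6 of these the tumor was more than 4-fold above all 10 others.

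The genes named here beyond Cst12, Minar2 and Ervv-2, the 3 with the smallest p, were chosen after their values were seen. In amosite replicate 1, the epithelioid tumor, Cst12, a cystatin of the male reproductive tract, had a log2 signal of 17.80, against 5.94 to 6.50 in the 8 MWCNT tumors and 5.84 and 5.64 in amosite replicates 2 and 3 (adjusted p = 0.000683 in limma). Minar2, a membrane protein, had 17.17 there, against 6.97 to 7.60 in MWCNT tumors, and its other probe set had 9.22. Foxl2, a transcription factor of the ovary and pituitary, had 13.47, Hsd3b1, an enzyme of steroid hormone synthesis, 13.91, and Amhr2, the receptor of anti-Mullerian hormone, 12.34. Lhx9 and Gata4, transcription factors of the early gonad, had 9.26 and 10.65. For Amhr2 and Gata4 the MWCNT tumors were themselves spread, up to 9.13 and 9.72. The list of gonadal and steroid cell genes had a mean of 4.90 to 5.42 in MWCNT tumors, against 7.19, 5.37 and 5.67 in amosite replicates 1, 2 and 3. Of its 7 measured genes, 3 were higher and 4 lower in MWCNT than in amosite tumors, with a median of -0.12. Not all steroid genes were high in amosite replicate 1. Star had 6.77 there, inside the MWCNT range of 4.95 to 7.92, and was highest in amosite replicate 3 (10.46). Tnni3, cardiac troponin I, had 15.01 and Igfbp5, an IGF-binding protein, 15.43, against at most 6.14 and 7.50 in MWCNT tumors. The neurofilament genes Nefl and Nefm had 11.72 and 10.71, and Pou3f3, a factor of neural development, 12.56, against at most 4.97, 4.92 and 4.18 in MWCNT tumors.

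The other amosite tumors had fewer such genes. In amosite replicate 2, the biphasic tumor, Ahrr, the repressor of the aryl hydrocarbon receptor, had 12.05, against 6.06 to 7.06 in MWCNT tumors, and Slc26a3, an anion exchanger of the colon, had 9.36, against at most 3.89. In amosite replicate 3, the sarcomatoid tumor, Ervv-2, an envelope gene of an endogenous retrovirus, had 12.82, against 5.60 to 6.56 in MWCNT tumors (adjusted p = 0.00344 in limma). Unc45b, a myosin chaperone of muscle, and Kcnn3, a calcium-activated potassium channel, had 11.78 and 10.68 there, against at most 6.43 and 6.70 in MWCNT tumors. Dcdc2 shared high levels in amosite replicates 1 and 2.

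Single tumors with their own genes were not limited to amosite. Probe sets at a log2 signal of at least 8 and more than 4-fold above all other tumors numbered 308 in MWCNT D replicate 2 and 4 to 46 in the other 7 MWCNT tumors, against 213, 27 and 24 in amosite replicates 1, 2 and 3. Thus the 2 arrays with pancreatic signal were also the 2 with the most genes of their own, and the part of other tissue in those genes was not tested. Without both arrays the test of inducer class by tumor type gave 11 probe sets. No epithelioid amosite tumor was then left, so the test no longer covered that type and this count cannot be set against the 117.

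**Figure D5:**
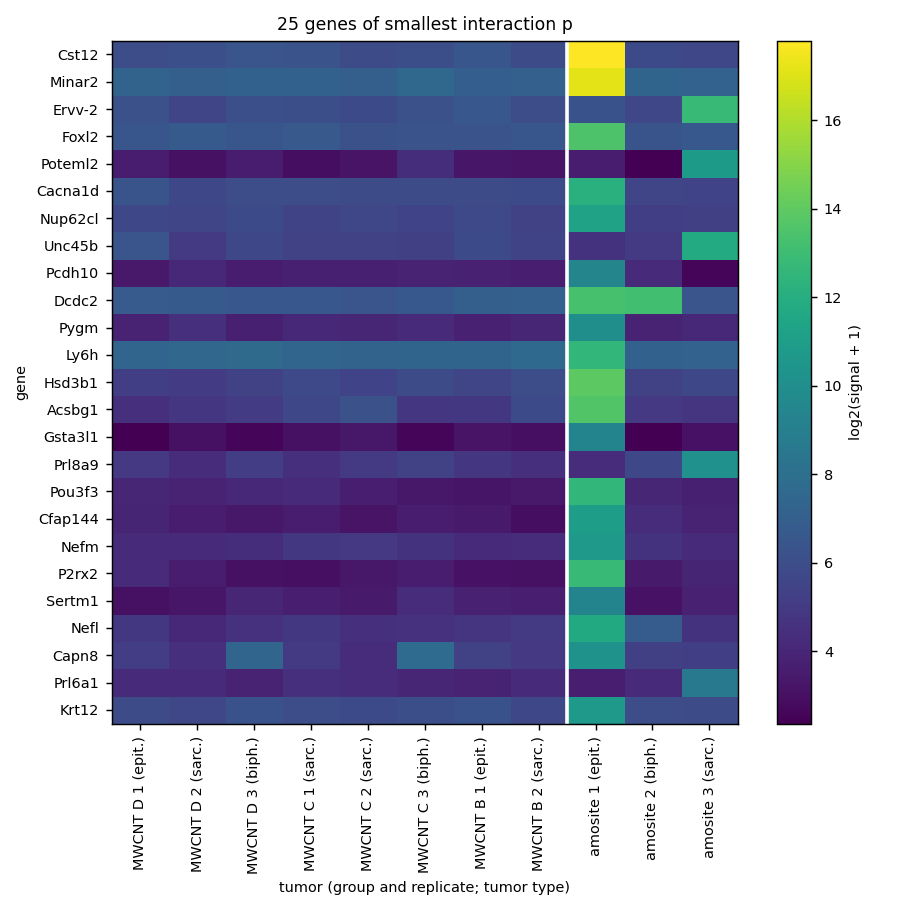
Log2 signal, as color, of 25 genes with the smallest p of the test of inducer class by tumor type (rows) in the 8 MWCNT tumors (left of the white line) and the 3 amosite tumors (right). Single amosite tumors stand out, as for Cst12 at 17.80 in amosite replicate 1 and Ervv-2 at 12.82 in amosite replicate 3.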

How the data were processed

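Gene expression was measured on Affymetrix rat genome arrays, 1 per sample. Per the labels and methods, the authors summarised probes to 1 linear intensity per probe set with PLIER in the Transcriptome Analysis Console. The deposited intensities were used as log2(intensity + 1), after 57 AFFX controls were removed from 31099 probe sets. No detection calls were used, so low signals can be background. All value columns belonged to a sample (0 others). Of 31042 probe sets, 20826 had 1 gene symbol in the platform annotation, 436 several and 9780 none, and 20758 of the first were found in a RefSeq table. A gene is its brightest probe set over the 11 tumors.

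limma 3.58.1 in R 4.3.3 fitted inducer class with tumor type as covariate. P-values were adjusted by Benjamini-Hochberg over all probe sets, and a call needed an adjusted p below 0.05 and a fold above 2. The materials came from 1 fit of 4 inducer groups, and class by type from a moderated F test. For each named gene, exact two-sided permutation tests used 45 arrangements within tumor types and 165 over all tumors. The genes named are the 15 each way with the smallest p among those with a fold above 2 and a mean of at least 8 in the higher group, the 3 each way per material, the 3 of the interaction, the 3 of each list, and 11 picked from those the study discusses. Other genes were picked outside these rules, and not all are marked in the text. Mx1, Mx2, Irf7, Cpa3, Kit, Fos, Jun, Csf1r and Cd163 are among the unmarked ones. The comparison, the lists and the genes were chosen with earlier results of these data known. The labels call the samples biological replicates, and the p-values measure only the spread between these tumors. Scripts were tested on simulated data. Figures used Python 3.11.15, pandas 2.3.3 and matplotlib 3.10.9.

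Alternatives were no covariate, equal weight of the materials, quantile normalization, median centring, a floor of 5 and a filter of 6 on log2 signals, a pseudocount of 16, trended or no moderation, all 14 arrays, a replicate block, another choice of probe set, and leaving out each tumor or both arrays with pancreatic signal.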

Additional observations from a re-analysis of the deposited data

Results flagged for a closer look

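Among 87 items tested for a tumor far from the rest of the 8 MWCNT tumors (41 genes and 46 list means), 19 had such a tumor. The limit used is passed by chance in about 1 of 20 groups, and the genes of a list are not independent of each other. In 15 of the 19 the tumor was MWCNT D replicate 2, the array with pancreatic and lymphoid signal.

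Log2 signals of MWCNT D replicate 2 lay below the other MWCNT tumors for mesothelial and tumor genes. They were 7.92 for Msln (others 11.11 to 13.38), 7.08 for Wt1 (10.73 to 12.06), 8.07 for Spp1 (11.64 to 13.52) and 6.21 for Inhba (9.65 to 11.25). They were 8.50 for Rnd3 (10.43 to 11.18), 4.83 for Plaat1 (6.36 to 7.46) and 6.79 for Unc5b (7.86 to 8.66). The means of the study's mesothelioma genes (9.03, others 9.54 to 9.88), of proteases of invasion (8.14, others 9.14 to 10.01) and of epithelial to mesenchymal transition (9.0, others 10.30 to 10.81) were low in the same tumor. Its means were high for pancreatic acinar cells (12.75, others 5.23 to 5.76), pancreatic islets (8.52, others 4.82 to 5.17), spleen and lymph node stroma (12.90, others 6.86 to 7.79), T and NK cells (10.55, others 5.40 to 7.44) and B and plasma cells (10.98, others 5.24 to 7.05). The part of these tissues in the low tumor genes was not tested.

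4 items had another tumor apart. Fxyd5 was at 11.39 in MWCNT D replicate 1 (others 11.85 to 12.22). The mean of iron-handling genes was 9.91 in MWCNT C replicate 1 (others 8.92 to 9.39), that of NRF2 antioxidant genes 11.66 in MWCNT C replicate 3 (others 9.28 to 10.27), and that of oxidative phosphorylation genes 11.80 in MWCNT C replicate 2 (others 11.37 to 11.52).

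The test of inducer class by tumor type was passed by 117 probe sets, with adjusted p of 0.000683 for Cst12, 0.000683 for Minar2 and 0.00344 for Ervv-2 in limma. With 1 amosite tumor of each type, type and tumor cannot be told apart.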

How the results depend on the processing

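The count of 0 called probe sets between MWCNT and amosite tumors held under every alternative run except the following. The replicate block gave 1 (Rup2, at a mean log2 signal of 0.04 in MWCNT tumors and 3.76 in amosite tumors), leaving out both arrays with pancreatic signal gave 1 (no symbol), and leaving out 1 tumor gave 0 to 2, with Plek2 called without amosite replicate 1 and Rup2 and Dcdc2 without amosite replicate 3. For MWCNT B, MWCNT C and MWCNT D the counts were 0 to 3 when 1 tumor was left out, with 3 for MWCNT B without its replicate 1 and 3 for MWCNT C and for MWCNT D without amosite replicate 3, and 1 for MWCNT C without both arrays. With group means removed, tumors of the same replicate number correlated at a median of 0.0539 (15 pairs, -0.29 to 0.392). Tumors of other numbers correlated at a median of -0.0267 (30 pairs, -0.448 to 0.448), and 4 of 11 were closest to their own number. Replicate number partly follows tumor type, so these values cannot settle whether the numbers pair the tumors.

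The 338 probe sets past the unadjusted p and fold became 188 with the filter, 176 with the floor, 204 without moderation, 928 without both arrays and 291 to 736 when 1 tumor was left out. For the materials these last ranges were 475 to 1098 (MWCNT B), 494 to 1251 (MWCNT C) and 461 to 1258 (MWCNT D), and the floor gave 247, 325 and 219. Without both arrays, chosen for the materials after seeing the data, they were 923, 1149 and 886. Probe sets without overlap between the groups became 993 higher and 1162 lower without both arrays, with 2 amosite tumors left. Without the tumor type covariate MWCNT B had 298. The 117 probe sets of class by type became 45 with the filter, 459 with the floor and 210 without MWCNT D replicate 2. They became 11 without both arrays and 10 without amosite replicate 1. These last 2 runs held no epithelioid amosite tumor, so the test no longer covered that type.

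Of the 30 genes with the smallest p, 0 reversed and 18 kept an unadjusted p below 0.05 under each of the 18 alternatives run for single genes. These alternatives leave out the filter, the moderation, the equal weighting, all 14 arrays and the replicate block. The 30 genes were picked by their p in the same tumors, so these counts are no measure of support for them. Without both arrays, Hsd3b1 stood at 0.15, Cst12 at 0.42, Fgfr4 at 0.12 and Msln at 0.037, all with the sign turned. With 1 tumor left out, Ervv-2 ranged over -3.73 to 0.30, Hsd3b1 over -4.11 to 0.057, Cst12 over -5.56 to 0.43, Ret over -0.54 to 0.076, Spp1 over -0.052 to 1.40, Rnd3 over -0.15 to 0.95, Fgfr4 over -0.52 to 0.33 and Msln over -0.44 to 0.20. The cause was not tested. With 3 amosite tumors, 1 of each type, differences between the inducers are estimated with a median standard error of 0.26 on the log2 scale, and signals near the bottom of the scale carry no detection call.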
